A study of Homo sapiens with 12 samples.

Results

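The genes JPH2, PNCK, SLC6A8, GPNMB and EEF1A2 were followed through an RNA sequencing series of OCI-AML2, a human acute myeloid leukemia cell line, because their RNA was nearly lost in cells that carried a guide against UTX. They were 5 of the 58735 Ensembl gene identifiers in the deposited table of raw counts, each matching 1 row. They were chosen by name for their low counts with UTX guides in DMSO, so their values in that comparison are a description and carry no test. By log2 fold change between sgUTX and sgLuc libraries in DMSO, JPH2 was the lowest of the 15060 genes tested, PNCK ranked 5, SLC6A8 17, GPNMB 24 and EEF1A2 129 from the lowest. No threshold separated them from the rest: 124 other genes lay at or below the value of EEF1A2, the lowest of them at -7.43 on the log2 scale.

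The series had 6 groups of 2 libraries each, 12 in all. Cells received by lentivirus the guide sgUTX_4, the guide sgUTX_2 or the control guide sgLuc, and were then grown for 6 days with SGC0946 at 1 µM, which blocks the histone methyltransferase DOT1L, or with the solvent DMSO. The labels give the genotype of the sgUTX_4 and sgUTX_2 cells as UTX knockout and that of the sgLuc cells as WT. The groups were thus sgUTX_4 with SGC0946, sgUTX_2 with SGC0946, sgUTX_4 with DMSO, sgUTX_2 with DMSO, sgLuc with SGC0946 and sgLuc with DMSO. Whether the guide-carrying cells were single clones is not given in the sources used here. The labels do not say whether the 2 libraries of a group were grown apart, so the spread between them can be technical. Tests of sgUTX as a whole took the 4 libraries of both guides in a treatment as replicates. Their p-values therefore mix the spread within a group with that between the 2 guides. Tests of single guides cover only the spread within groups, and no p-value here extends beyond these libraries.

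UTX, encoded by KDM6A, removes methyl groups from lysine 27 of histone H3, a mark of silent genes, and is a subunit of complexes that methylate lysine 4 of the same histone at enhancers. DOT1L methylates lysine 79 of histone H3 in transcribed genes, and leukemias with rearranged KMT2A depend on it. The 5 genes act in unrelated processes. JPH2 encodes junctophilin 2, which holds the plasma membrane and the sarcoplasmic reticulum together in heart and skeletal muscle. SLC6A8 encodes the sodium- and chloride-dependent creatine transporter, and PNCK, its neighbour on the X chromosome, a kinase of the calcium/calmodulin-dependent kinase I family. GPNMB encodes a transmembrane glycoprotein of melanocytes, macrophages and osteoclasts that is induced by transcription factors of the MiT family. EEF1A2 encodes the isoform of translation elongation factor 1 alpha that in normal tissue is confined to muscle, heart and neurons, where it takes the place of EEF1A1.

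In GENCODE 29, on GRCh38, JPH2 lies at chr20:44111695-44187578 on the minus strand, EEF1A2 at chr20:63488012-63499322 on the minus strand and GPNMB at chr7:23235967-23275108 on the plus strand. PNCK, at chrX:153669730-153689010 on the minus strand, and SLC6A8, at chrX:153688099-153696593 on the plus strand, stand head to head. Their nearest RefSeq starts are 155 bases apart, so that 254 bases of the promoter windows at these starts are the same DNA read on opposite strands. The GENCODE 29 models share 22 exonic bases, 0.432% of PNCK and 0.4% of SLC6A8. Promoter windows of 300 bases, from 250 bases before to 50 after the start, come from RefSeq on GRCh38.p14, which the tables used here hold for JPH2, PNCK, SLC6A8 and GPNMB. They are shown for 3 genes: for SLC6A8 because it shares its window with PNCK, for GPNMB because its window holds a motif of its known regulators, and for JPH2 because it was the most reduced gene. The SLC6A8 window is chrX:153687676-153687975 on the plus strand, with the bases from the PNCK start to the SLC6A8 start in capitals. The GPNMB window is chr7:23246525-23246824 on the plus strand, with TCACATGA in capitals. The JPH2 window is chr20:44187139-44187438 on the minus strand, with each CG in capitals.
SLC6A8: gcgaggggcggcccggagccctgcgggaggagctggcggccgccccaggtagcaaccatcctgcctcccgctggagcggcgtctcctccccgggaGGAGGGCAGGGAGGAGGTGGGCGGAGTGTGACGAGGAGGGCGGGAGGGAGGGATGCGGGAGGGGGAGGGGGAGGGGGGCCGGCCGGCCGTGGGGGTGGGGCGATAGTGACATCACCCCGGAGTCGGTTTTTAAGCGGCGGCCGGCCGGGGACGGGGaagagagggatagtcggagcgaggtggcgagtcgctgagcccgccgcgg
GPNMB: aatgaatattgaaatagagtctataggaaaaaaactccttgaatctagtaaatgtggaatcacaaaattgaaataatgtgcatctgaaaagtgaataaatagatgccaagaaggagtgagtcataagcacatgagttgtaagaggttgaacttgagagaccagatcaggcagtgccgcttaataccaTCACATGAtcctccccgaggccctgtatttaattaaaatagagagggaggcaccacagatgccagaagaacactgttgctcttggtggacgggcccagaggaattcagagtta
JPH2: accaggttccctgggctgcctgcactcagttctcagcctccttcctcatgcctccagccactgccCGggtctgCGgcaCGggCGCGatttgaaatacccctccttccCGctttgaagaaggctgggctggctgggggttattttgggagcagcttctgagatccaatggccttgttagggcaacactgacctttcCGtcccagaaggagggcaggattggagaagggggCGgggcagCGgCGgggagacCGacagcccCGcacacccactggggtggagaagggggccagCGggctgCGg

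The SLC6A8 window held 32 CG dinucleotides and the overlapping PNCK window 33, against a median of 14 over all 35116 windows in the table. The JPH2 window held 14 and the GPNMB window 3, so the 4 genes do not share a CG-rich or a CG-poor start. PNCK has 4 further RefSeq starts downstream, with 10 to 52 CG dinucleotides in their windows, and the counts do not tell which start was used. TCACATGA, an E-box with flanking bases that MiT factors are known to bind, was searched on both strands and occurred once in the GPNMB window, with 55 bases between it and the start. It occurred in 351 of the 35116 windows, 1% of them. The palindrome CACGTG was in 7.26% of all windows and in none of the members' windows. CATGTG, whose complement lies inside TCACATGA, was in 11.1% of all windows and among the members in that of GPNMB. These are matches of letters and not measured binding.

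Total counts per library ranged from 15480493 to 23262141. Levels are CPM, reads of a gene per 1000000 reads of the library after trimmed-mean scaling (TMM), and tests are two-sided edgeR quasi-likelihood tests with Benjamini-Hochberg adjustment over all 15060 genes, called at an adjusted p under 0.05. The scaling matters for counts over all genes: with library size alone the median log2 fold change of all genes between sgUTX and sgLuc moved from -0.01 to 0.26 in DMSO and from 0.01 to 0.20 in SGC0946. KDM6A itself averaged 46.0 and 47.8 CPM in sgUTX_4 libraries with SGC0946 and DMSO, 15.2 and 15.1 CPM in sgUTX_2 libraries, and 34.8 and 30.0 CPM in sgLuc libraries. It was thus higher than in sgLuc with sgUTX_4 (0.67 ± 0.09 in DMSO, log2, edgeR adjusted p = 1.94e-07) and lower with sgUTX_2 (-0.99 ± 0.10, edgeR adjusted p = 3.56e-10), and an RNA level does not check whether the protein was lost. All 12 myeloid markers examined (among them SPI1, MPO and CSF1R) were measured, with a summed level of 5400 to 7600 CPM in sgUTX SGC0946 libraries, 2040 to 2680 in sgUTX DMSO, 12500 to 12700 in sgLuc SGC0946 and 2480 to 2640 in sgLuc DMSO. The defining markers MYOD1 (muscle), TYR (melanocyte), HBB and HBA1 (erythroid) and MS4A1 (B cell) had no count in any library, and 7 neuronal genes and SYP together gave 0.908 to 3.29 CPM.

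**Figure D1:**
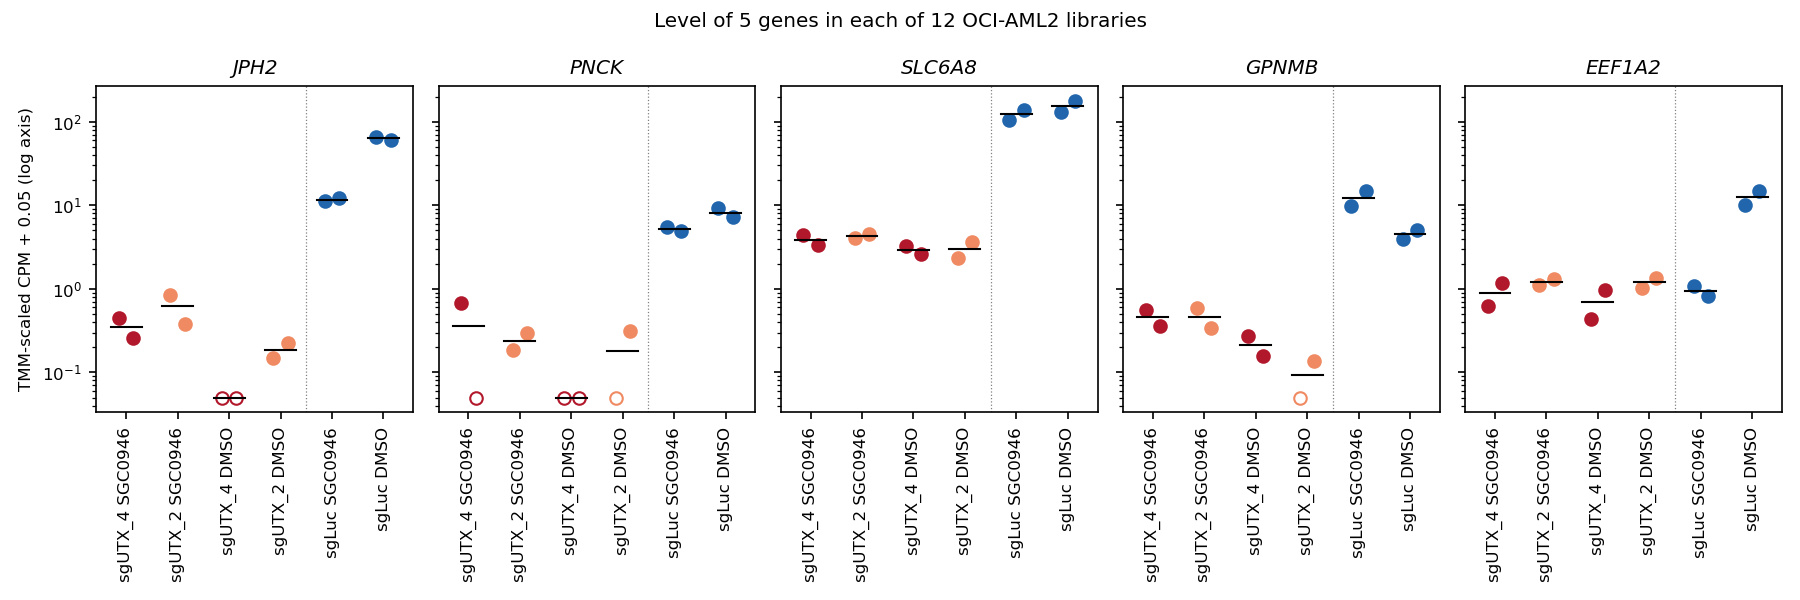
Level of the 5 genes in each library, as TMM-scaled CPM plus 0.05 on a log axis, with 2 libraries per group. Dots are libraries, open dots have no count, and black lines are group means. The sgUTX libraries of JPH2, PNCK, SLC6A8 and GPNMB lie below both sgLuc groups under either treatment. EEF1A2 is high only in the sgLuc DMSO libraries, at 10.1 and 14.6 CPM.

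SGC0946 restored none of the 5 genes to the level of untreated control cells. In sgUTX libraries with SGC0946 their mean levels were 0.682% (JPH2), 3.08% (PNCK), 2.62% (SLC6A8), 9.26% (GPNMB) and 8.15% (EEF1A2) of those in sgLuc DMSO libraries. Under SGC0946, 4 of the 5 were still lower in sgUTX than in sgLuc libraries, all except EEF1A2, where 29.3% of all genes were called lower. The choice named DMSO, but earlier results of these data were known, so the SGC0946 libraries are not an independent check. JPH2, PNCK and GPNMB passed the filter on low counts only through sgLuc libraries. The p-values of the members under SGC0946 therefore describe these libraries. The DMSO libraries that chose the members also enter every response to SGC0946. A low sgUTX and a high sgLuc level in DMSO favour a higher value with SGC0946 in sgUTX cells, a lower one in sgLuc cells and a narrower gap between genotypes. The members' responses, and the difference of the responses, are therefore given as a description with no test. In sgLuc libraries with SGC0946 the level of EEF1A2 lay in the range seen with UTX guides. In bulk RNA, fewer cells that express a gene and less RNA per cell cannot be told apart.

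**Figure D2:**
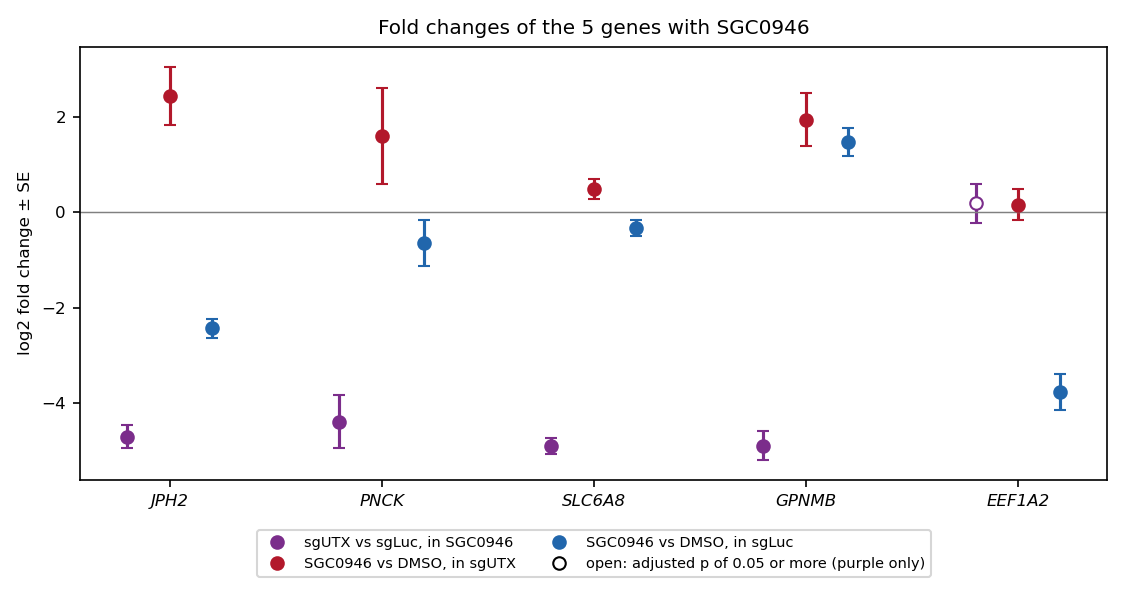
Log2 fold changes (vertical axis) of the 5 genes with their standard errors, from the edgeR fit of 12 libraries. Purple dots compare sgUTX with sgLuc under SGC0946, red dots SGC0946 with DMSO in sgUTX, and blue dots SGC0946 with DMSO in sgLuc, with an open purple dot where the adjusted p was 0.05 or more. The red and blue values carry no test, since DMSO libraries chose the genes. JPH2 had values of opposite sign in sgUTX and sgLuc (2.45 and -2.44), GPNMB of the same sign (1.95 and 1.48), and EEF1A2 stood at 0.16 in sgUTX and -3.77 in sgLuc.

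JPH2 showed the deepest loss. In SGC0946 it had 7 and 4 reads in the sgUTX_4 libraries, 18 and 8 in the sgUTX_2 libraries and 184 and 221 in the sgLuc libraries. In DMSO it had 0 and 0 reads with sgUTX_4, 2 and 4 with sgUTX_2, and 1055 and 809 with sgLuc. All 8 sgUTX libraries lay below all 4 sgLuc libraries, as for 16.4% of all genes. Within a treatment the sgUTX libraries lay below the sgLuc libraries for 34.3% of all genes under SGC0946 and 35.7% in DMSO. The sgUTX libraries with SGC0946 lay above those with DMSO without overlap, as 15.7% of all genes did, and sgLuc libraries with SGC0946 below those with DMSO, as 37.8% did. In DMSO the level in sgUTX libraries together was 847-fold lower than in sgLuc (6 against 1864 reads, 95% exact interval 388 to 2311, counting error only). With no read in either sgUTX_4 library, the level there was at least 778-fold lower, taking 3 reads over the group as the limit that a count of 0 allows. That limit takes the sgLuc count as exact. The 95% exact interval of the ratio of sgUTX_4 to sgLuc reached up to 0.00158. With SGC0946, 37 reads in sgUTX libraries against 6 with DMSO gave a 5.86-fold higher level (95% exact interval 2.45 to 17.0), and the fitted change was 2.45 ± 0.61 (log2, SE). With sgUTX_2 alone it was 1.95 ± 0.59. With sgUTX_4 alone there were 11 reads with SGC0946 against none with DMSO, for which the lower limit of the 95% exact interval was a 2.47-fold higher level. In sgLuc cells JPH2 was 5.44-fold lower with the inhibitor, at 11.7 ± 0.8 CPM with SGC0946 against 63.5 ± 3.1 with DMSO (SD, n = 2 each; log2 fold change -2.44 ± 0.19). The response in sgUTX minus that in sgLuc was 4.89 ± 0.61 on the log2 scale, and the DMSO gap that enters it is the value by which JPH2 was chosen. Under SGC0946 the sgUTX libraries stood 26.6-fold below sgLuc (0.433 ± 0.259 CPM, n = 4, against 11.7 ± 0.8, n = 2, SD; log2 fold change -4.71 ± 0.25, edgeR adjusted p = 1.43e-12).

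The other junctophilins were close to absent, with at most 2 (JPH1), 11 (JPH3) and 3 (JPH4) reads in any library. In sgLuc libraries JPH2 was thus the one junctophilin measured beyond a few reads. In sgUTX libraries JPH3 averaged 0.454 CPM with SGC0946 and 0.428 with DMSO, against 0.433 and 0.0684 for JPH2. Of 18 other genes of membrane junctions and calcium release, 7 passed the filter on low counts. In DMSO 4 were higher and 1 was lower in sgUTX than in sgLuc libraries, where 28.7% and 32.3% of all genes were. RYR3, a ryanodine receptor, was higher by 2.89 ± 0.59 and STIM1, the calcium sensor of the endoplasmic reticulum, lower, at -0.64 ± 0.06 (log2, edgeR adjusted p = 0.000181 and 5.25e-09). Under SGC0946 1 was higher and 1 lower, where 27.7% and 29.3% of all genes were, with STIM1 at -0.41 ± 0.06 (edgeR adjusted p = 6.95e-06). Muscle markers were low throughout, with a summed level of 5.67 to 8.95 CPM in sgUTX SGC0946, 3.29 to 6.14 in sgUTX DMSO, 18.4 to 23.1 in sgLuc SGC0946 and 11.1 to 14.5 CPM in sgLuc DMSO libraries. The creatine kinase CKM made up the largest share of that sum, and the part of this list in the JPH2 result was not tested.

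SLC6A8 was the most abundant of the 5 per kb of annotated exon (28.1 CPM per kb in sgLuc DMSO libraries, against 10.7 for JPH2 and at most 2.52 for the others) and kept a measurable remainder with UTX guides. In SGC0946 it had 76 and 65 reads with sgUTX_4, 91 and 110 with sgUTX_2, and 1761 and 2507 with sgLuc. In DMSO it had 58 and 47 reads with sgUTX_4, 46 and 82 with sgUTX_2, and 2108 and 2354 with sgLuc. The sgUTX libraries lay far below the sgLuc libraries in both treatments, while the treatments overlapped within each genotype. The DMSO level with UTX guides was 52.2-fold lower (233 against 4462 reads, 95% exact interval 45.8 to 59.8). Under SGC0946 it was 30.3-fold lower, at 4.05 ± 0.52 CPM in sgUTX (n = 4) against 123 ± 23 in sgLuc (n = 2, SD; log2 fold change -4.91 ± 0.16, edgeR adjusted p = 2.2e-11). The response to SGC0946 was 0.48 ± 0.21 in sgUTX cells (95% interval 0.06 to 0.90) and -0.33 ± 0.16 in sgLuc cells, and the first minus the second was 0.81 ± 0.27 (log2).

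PNCK, with 1 of its RefSeq starts on the same stretch of DNA, was low by count everywhere. In SGC0946 it had 11 and 0 reads with sgUTX_4, 3 and 6 with sgUTX_2, and 91 and 88 with sgLuc. In DMSO it had 0 and 0 reads with sgUTX_4, 0 and 6 with sgUTX_2, and 147 and 94 with sgLuc. As for SLC6A8, no sgUTX library reached the sgLuc libraries, and SGC0946 and DMSO libraries of sgUTX overlapped. The DMSO level with UTX guides was 110-fold lower (6 against 241 reads, 95% exact interval 49.6 to 301). With sgUTX_4, which had no read, it was at least 101-fold lower by the limit of 3 reads used for JPH2. The 95% exact interval of the ratio of sgUTX_4 to sgLuc reached up to 0.0123. Under SGC0946 it was 21.7-fold lower, with 0.251 ± 0.268 CPM in sgUTX (n = 4) against 5.19 ± 0.43 in sgLuc (n = 2, SD; log2 fold change -4.40 ± 0.56, edgeR adjusted p = 9.49e-06). The change with SGC0946 in sgUTX cells was 1.60 ± 1.01 (log2, 95% interval -0.38 to 3.58). It rested on single libraries: 11 of the 20 SGC0946 reads came from 1 library, all 6 DMSO reads from the second sgUTX_2 library, and without that library the change was 5.20. In sgLuc cells the change was -0.65 ± 0.48, and both SGC0946 libraries lay below both DMSO libraries, as for 37.8% of all genes. Per 100 SLC6A8 reads there were 0 to 14.5 PNCK reads in the 8 sgUTX libraries, against 5.17 and 3.51 in sgLuc SGC0946 libraries and 6.97 and 3.99 in sgLuc DMSO libraries.

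Of the 3 other creatine genes that passed the filter, 2 were lower with UTX guides in both treatments, where 29.3% (SGC0946) and 32.3% (DMSO) of all genes were. CKB, the brain-type creatine kinase, which phosphorylates the creatine that SLC6A8 imports, averaged 3.83 ± 0.49 CPM in sgUTX SGC0946 and 3.35 ± 0.46 in sgUTX DMSO (n = 4), against 13.0 ± 1.8 in sgLuc SGC0946 and 23.3 ± 0.7 in sgLuc DMSO libraries (n = 2, SD). Its log2 fold changes between sgUTX and sgLuc were -1.75 ± 0.15 in SGC0946 and -2.79 ± 0.15 in DMSO (edgeR adjusted p = 1.23e-09 and 2.58e-13). CKM, the muscle-type kinase, was lower, at -1.40 ± 0.24 in SGC0946 and -1.85 ± 0.27 in DMSO (log2, edgeR adjusted p = 5.92e-05 and 7.72e-06). GAMT, which makes creatine, was not called in either (0.57 ± 0.57 and 0.60 ± 0.51). GATM, CKMT1A, CKMT1B and CKMT2, the other members of the list, had at most 9 reads in any library. Of 11 other tested genes of calmodulin and its kinases, 8 were lower and 1 was higher with UTX guides in SGC0946, where 29.3% and 27.7% of all genes were, with a median log2 fold change of -0.44 against 0.01 over all genes. In DMSO 8 were lower and none was higher, where 32.3% and 28.7% of all genes were, with a median of -0.76. CAMK2D, a subunit of calmodulin kinase II, was lower, at -0.90 ± 0.10 in SGC0946 and -1.60 ± 0.10 in DMSO (log2, edgeR adjusted p = 5.39e-08 and 2.18e-12). CAMK1 and CAMK1D are kinases of the same family as PNCK. CAMK1D was lower in both, at -0.31 ± 0.09 in SGC0946 and -0.24 ± 0.09 in DMSO (log2, edgeR adjusted p = 0.0041 and 0.03). CAMK1 was not called in SGC0946 (-0.53 ± 0.25) and lower in DMSO (-1.49 ± 0.23, edgeR adjusted p = 6.21e-05), but shares 80.1% of its exonic bases with OGG1. The 1 gene that was higher in SGC0946 was CAMKK2, a kinase that activates those of family I, at 0.44 ± 0.06 (log2, edgeR adjusted p = 8.75e-07), named after its value was seen.

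GPNMB was the 1 gene of the 5 whose mean level was higher with SGC0946 in both genotypes. In SGC0946 it had 9 and 6 reads with sgUTX_4, 12 and 7 with sgUTX_2, and 160 and 269 with sgLuc. In DMSO it had 4 and 2 reads with sgUTX_4, 0 and 2 with sgUTX_2, and 62 and 66 with sgLuc. The 4 sgUTX SGC0946 libraries lay above the 4 sgUTX DMSO libraries (as for 15.7% of all genes), both sgLuc SGC0946 libraries above both sgLuc DMSO libraries (as for 38.6% of all genes), and no sgUTX library reached a sgLuc library. In DMSO the level with UTX guides was 43.6-fold lower (8 against 128 reads, 95% exact interval 21.5 to 103). It was 4.04-fold higher with SGC0946 in sgUTX cells (34 against 8 reads, 95% exact interval 1.84 to 10.1; log2 fold change 1.95 ± 0.56), with a log2 fold change of 1.27 ± 0.73 with sgUTX_4 alone and 2.97 ± 0.88 with sgUTX_2 alone. In sgLuc cells it averaged 12.3 ± 3.7 CPM with SGC0946, against 4.43 ± 0.81 with DMSO (SD, n = 2 each; log2 fold change 1.48 ± 0.29). The response in sgUTX minus that in sgLuc was 0.47 ± 0.60 (log2), with a 95% interval of -0.71 to 1.65. The fold between genotypes under SGC0946 was 30.6 (0.410 ± 0.131 CPM in sgUTX, n = 4, against 12.3 ± 3.7 in sgLuc, n = 2, SD; log2 fold change -4.90 ± 0.30, edgeR adjusted p = 3e-12). The myeloid marker sums given above were also higher with SGC0946 in both genotypes, most of it from LYZ, the lysozyme of granulocytes and macrophages. LYZ stood at 2890 to 4700 CPM in sgUTX SGC0946, 244 to 535 in sgUTX DMSO, 9250 to 9450 in sgLuc SGC0946 and 322 to 390 in sgLuc DMSO libraries. The other 11 summed to 2470 to 2900 CPM in sgUTX SGC0946, 1790 to 2140 in sgUTX DMSO, 3250 to 3270 in sgLuc SGC0946 and 2160 to 2250 in sgLuc DMSO libraries, and the part of these markers in the GPNMB values was not tested. Melanocyte markers summed to 0.373 to 1.98 CPM over all libraries.

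Of 13 other tested genes of the list of GPNMB partners and MiT factors, SGC0946 raised 10 and lowered 1 in sgLuc cells, where 24.7% of all genes were called higher and 24.2% lower, with a median log2 fold change of 0.56 against 0.00 over all genes. In sgUTX cells it raised 3 and lowered none, where 17.4% and 16.4% of all genes were called, with a median of 0.02. TFEC, a MiT factor of myeloid cells, rose in sgUTX cells by 1.66 ± 0.21 and in sgLuc cells by 1.30 ± 0.31 (log2, edgeR adjusted p = 0.000336 and 0.00775). MITF rose in sgLuc cells by 1.19 ± 0.21 (log2, edgeR adjusted p = 7.19e-05). Between genotypes under SGC0946, 10 of the 13 were lower and 1 was higher with UTX guides, where 29.3% and 27.7% of all genes were. They included the MiT factor TFE3, at -1.33 ± 0.08, and SDC4, a surface heparan sulfate proteoglycan that binds GPNMB, at -1.36 ± 0.13 (log2, edgeR adjusted p = 1.03e-12 and 4.06e-09). In DMSO 7 were lower and 2 higher, where 32.3% and 28.7% of all genes were, with TFE3 at -0.97 ± 0.08 and MITF at 1.04 ± 0.19 (log2, edgeR adjusted p = 6.65e-10 and 6.45e-05).

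EEF1A2 followed another course. In SGC0946 it had 10 and 22 reads with sgUTX_4, 24 and 31 with sgUTX_2, and 17 and 14 with sgLuc. In DMSO it had 7 and 17 reads with sgUTX_4, 20 and 30 with sgUTX_2, and 163 and 193 with sgLuc. The 2 sgLuc DMSO libraries stood above the other 10, which overlapped one another. In DMSO the sgUTX libraries lay below the sgLuc libraries without overlap for 35.7% of all genes. The sgLuc libraries with SGC0946 lay below those with DMSO for 37.8%. How many genes had both was not counted. In DMSO the level with UTX guides was 13.1-fold lower (74 against 356 reads, 95% exact interval 10.2 to 17.1). In sgLuc cells EEF1A2 was 13.6-fold lower with the inhibitor, at 0.901 ± 0.177 CPM with SGC0946 against 12.4 ± 3.2 with DMSO (SD, n = 2 each; log2 fold change -3.77 ± 0.38). In sgUTX cells the level was 1.01 ± 0.31 CPM with SGC0946 and 0.900 ± 0.385 with DMSO (SD, n = 4 each; log2 fold change 0.16 ± 0.32, 95% interval -0.46 to 0.78). The response in sgUTX minus that in sgLuc was 3.93 ± 0.50 (log2). Under SGC0946 the genotypes differed by 0.19 ± 0.41 (95% interval -0.60 to 0.99, edgeR adjusted p = 0.709). By reads the sgUTX level was 1.16 times that in sgLuc, with a 95% exact interval of 0.759 to 1.80.

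EEF1A1, the isoform used in most tissues, was far more abundant and moved less. Per 1000000 EEF1A1 reads there were 23.3 to 45.6 EEF1A2 reads in sgUTX SGC0946 libraries, 15.8 to 52.3 in sgUTX DMSO, 29.9 and 21.3 in sgLuc SGC0946, and 224 and 289 in sgLuc DMSO libraries. EEF1A1 was itself lower with UTX guides, at -0.46 ± 0.07 in SGC0946 and -0.94 ± 0.07 in DMSO, and lower with SGC0946 in sgLuc cells, at -0.44 ± 0.08 (log2, edgeR adjusted p = 4.49e-06, 4.08e-11 and 8.14e-05). Of 11 other tested genes of translation elongation, SGC0946 lowered 8 in sgLuc cells and raised none, where 24.2% of all genes were called lower, with a median log2 fold change of -0.56. EEF2, which moves the ribosome along the message, fell by 0.95 ± 0.10 there (log2, edgeR adjusted p = 2.97e-07). In sgUTX cells SGC0946 lowered 2 and raised none, where 16.4% and 17.4% of all genes were called, with a median of -0.05, EEF1E1 among them at -0.63 ± 0.09 (edgeR adjusted p = 8.94e-06), a gene that shares 18.7% of its exonic bases with a read-through gene. Between genotypes in DMSO 4 were higher and 5 lower with UTX guides, where 28.7% and 32.3% of all genes were. Under SGC0946 5 were higher and 1, EEF1A1, was lower, where 27.7% and 29.3% of all genes were. EEF1G had no count in any library, and 99.9% of its exonic bases are shared with AP002990.1, so it was not measured.

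The 5 genes lay in the lower part of the range of genes that were as low with UTX guides. Of the 124 other genes at or below EEF1A2 in DMSO, 60 (48.4%) were called higher with SGC0946 in sgUTX cells and 2 lower, where 17.4% and 16.4% of all genes were. Their median level in sgUTX SGC0946 libraries was 14.5% of that in sgLuc DMSO libraries, 15 stood at 50% or more and 45 under 10%. All 5 members were under 10%: 2 of the 124 stood lower than JPH2, 6 lower than SLC6A8, 7 lower than PNCK, 36 lower than EEF1A2 and 43 lower than GPNMB. Under SGC0946, 105 of the 124 (84.7%) were still lower in sgUTX than in sgLuc libraries and none was higher, where 29.3% and 27.7% of all genes were. These genes were chosen by the same DMSO libraries as the members, which favours a higher value with SGC0946 in sgUTX cells. The counts describe them without a test. Set against sgLuc libraries with the inhibitor and not without it, the sgUTX SGC0946 level was 3.71% for JPH2, 4.84% for PNCK, 3.3% for SLC6A8, 3.34% for GPNMB and 112% for EEF1A2.

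**Figure D3:**
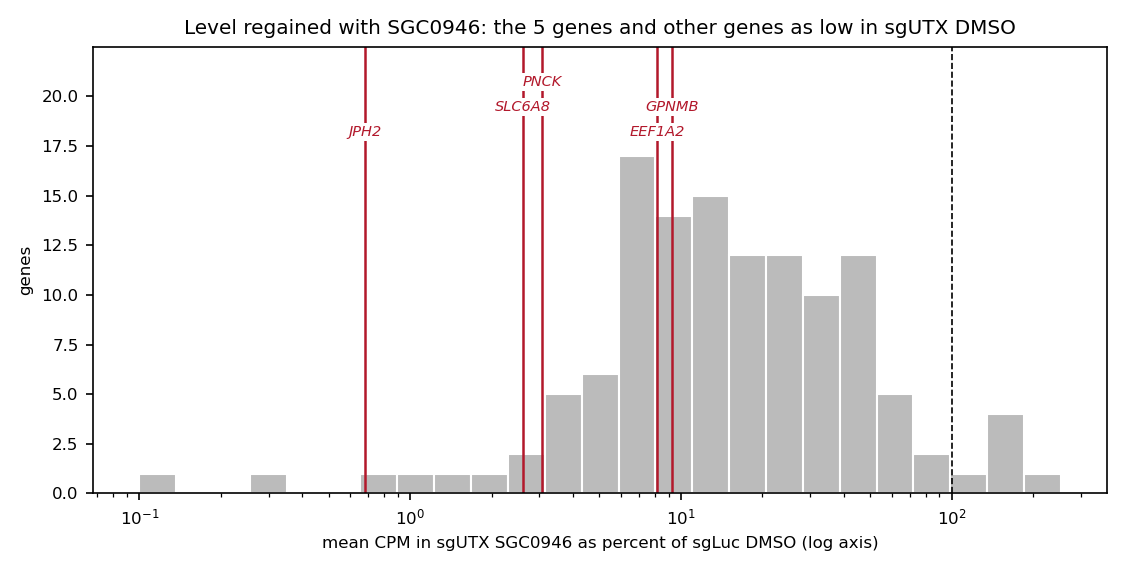
Mean CPM in sgUTX SGC0946 libraries as a percent of that in sgLuc DMSO libraries (log axis), for 124 genes that were as low in sgUTX DMSO as EEF1A2 (grey bars, number of genes) and for the 5 genes (red lines). The dashed line marks 100%, and 1 gene with no count is drawn at 0.1%. All red lines lie left of 10%, with JPH2 at 0.682%.

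No difference between the 2 UTX guides was called for the 5 genes at this depth after adjustment. No member was called between sgUTX_4 and sgUTX_2 in SGC0946 or in DMSO by edgeR, where 3.01% and 3.49% of all genes were called. At an unadjusted p under 0.05 there was none in SGC0946 and 1 in DMSO, and DESeq2 called none in either, with an adjusted p for 4 of the 5 in SGC0946 and for all 5 in DMSO. The intervals were wide where reads were few. In DMSO, JPH2 had no read with sgUTX_4 and 6 with sgUTX_2, a difference of -4.47 ± 1.69 (log2, edgeR adjusted p = 0.156). Its 95% interval, -7.78 to -1.15, did not reach equality, and JPH2 was the 1 member with an unadjusted p under 0.05. PNCK had no read with sgUTX_4 and 6, all in 1 library, with sgUTX_2 (-4.46 ± 2.69, 95% interval -9.74 to 0.82, edgeR adjusted p = 0.468). For SLC6A8, with more reads, the difference was -0.18 ± 0.40 in SGC0946 (95% interval -0.96 to 0.60) and -0.05 ± 0.46 in DMSO (95% interval -0.95 to 0.86). For EEF1A2 it was -0.45 ± 0.41 and -0.81 ± 0.44, and for GPNMB -0.01 ± 0.57 and 1.69 ± 1.12 (log2, SE, SGC0946 first). KDM6A RNA, by contrast, was higher with sgUTX_4 than with sgUTX_2 in every library of either treatment.

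In DMSO, the comparison that chose the members, the genes next to them were not as low with UTX guides as the members themselves. Of the 24 nearest protein-coding genes (3 on either side of each member, members left out), 17 were tested, and in DMSO 6 were higher and 7 lower with UTX guides, where 28.7% and 32.3% of all genes were, with a median log2 fold change of -0.03. Beside SLC6A8 and PNCK, BCAP31, which starts 36.6 kb from SLC6A8, was at 0.12 ± 0.07, and ATP2B3, a calcium pump gene 170 kb to the other side, at -1.75 ± 0.61 (log2, edgeR adjusted p = 0.151 and 0.0163). Beside JPH2, OSER1 at 23.2 kb was lower, at -0.80 ± 0.09, as was TOX2, 273 kb to the other side, at -2.15 ± 0.10, while MYBL2 at 521 kb was higher by 1.53 ± 0.08 (log2, edgeR adjusted p = 1.44e-07, 5.51e-14 and 7.04e-13). Both tested neighbours of EEF1A2 were lower, PPDPF at -0.96 ± 0.09 and PTK6 at -1.71 ± 0.43 (edgeR adjusted p = 6.26e-08 and 0.00155). The 5 tested neighbours of GPNMB lay between -0.24 and 0.99. The lowest of the 17 was TOX2, at -2.15, above every member. The members were chosen for low values in this comparison, so their place below the neighbours follows from the choice and carries no test. Under SGC0946, 4 of the 17 were higher and 5 lower, where 27.7% and 29.3% of all genes were, with a median of -0.12. The lowest there was PTK6, at -3.54 ± 0.39 (log2, edgeR adjusted p = 6.68e-08), while EEF1A2 beside it was at 0.19 ± 0.41.

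**Figure D4:**
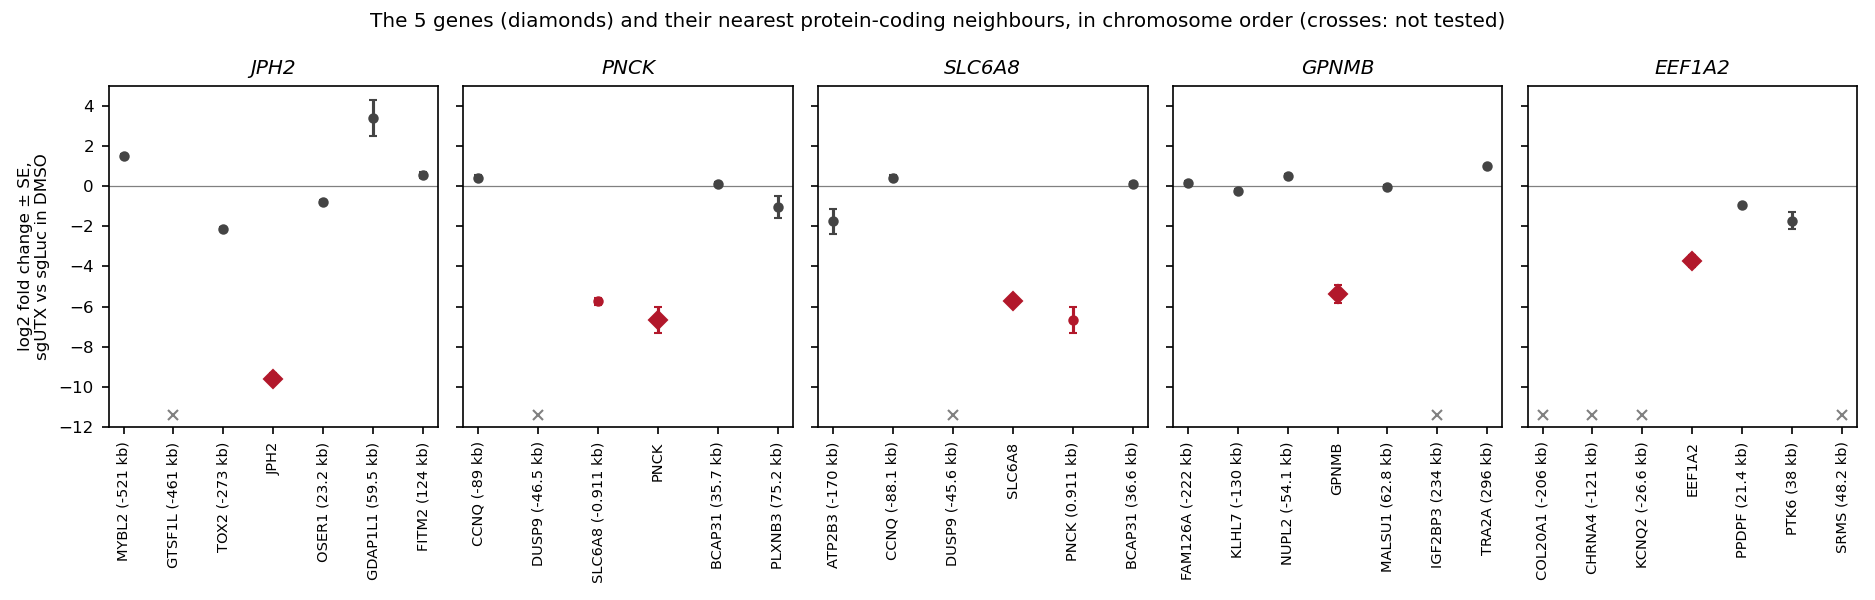
Log2 fold change between sgUTX and sgLuc in DMSO (vertical axis, with standard errors) of each of the 5 genes (red diamonds) and of the nearest protein-coding genes on either side, up to 3 each, in chromosome order, with the distance between gene starts in kb beside each name. Crosses are genes with too few counts to be tested. PNCK and SLC6A8 (red) are each other's neighbours, and the tested neighbours lie between -2.15 and 3.39.

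Across the 12 libraries, JPH2, PNCK, SLC6A8 and GPNMB were correlated on the log2 CPM scale, with Pearson's r from 0.893 (JPH2 and GPNMB) to 0.965 (JPH2 and SLC6A8). They did not move alike within a genotype: with SGC0946 in sgLuc cells JPH2 changed by -2.44 and GPNMB by 1.48 (log2). EEF1A2 was less correlated with these 4 genes, with r from 0.412 (GPNMB) to 0.752 (JPH2). All pairs share the same libraries and the same split between sgUTX and sgLuc, so these values are a description. Among the 15060 genes tested, the 3 most like JPH2 were ENO2 (r = 0.993), DENND6B and PLD4 (0.989 each). The 3 most like SLC6A8 were TOX2 (0.995), APOL1 and NDRG1 (0.994 each), and the 3 most like PNCK were RASSF7 (0.974), PDE9A and TRAFD1 (0.971 each). PDE9A had few reads, averaging 0.297 CPM in sgUTX SGC0946, 0.246 in sgUTX DMSO and 1.15 in each sgLuc group. The 3 most like GPNMB were SLC22A18 (0.995), FAM129B and FCGR2A (0.988 each). The 3 most like EEF1A2 were TOP1MT (0.984), AFF3 and IMPDH2 (0.975 each). IMPDH2, an enzyme of guanine nucleotide synthesis, had the pattern of EEF1A2 at a smaller size: -0.98 ± 0.07 between genotypes in DMSO, 0.18 ± 0.07 in SGC0946, and -1.07 ± 0.08 with SGC0946 in sgLuc cells (log2). ENO2, a glycolytic enzyme, had the pattern of JPH2, at -4.49 ± 0.18 between genotypes in DMSO, 0.85 ± 0.20 with SGC0946 in sgUTX cells and -1.09 ± 0.17 in sgLuc cells (log2). Both were picked for this likeness, so these values carry no test.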

How the data were processed

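Raw read counts per gene were deposited by the authors for 12 libraries and used without change. Per the labels' protocols, total RNA was extracted with RNeasy and sequenced as pairs of 150 bases, and STAR 2.5.1b and hg19 are named in the submitters' processing notes. All 58735 identifiers are those of GENCODE 29, which annotates GRCh38, so the build behind the counts is uncertain, and positions follow that annotation. How reads were counted, with or without strand and where several genes match, is not given in the sources used here. Of the 50-base stretches of SLC6A8, 11.2% occur elsewhere, mainly in AC133561.1 and SLC6A10P, which had at most 1 count in any library, so reads of SLC6A8 may have been lost.

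The counts were fitted in R 4.3.3 with edgeR 4.0.16 (TMM, filterByExpr, robust quasi-likelihood F-tests) over all 12 libraries in 4 groups, so that both guides counted as sgUTX (8 residual degrees of freedom, biological coefficient of variation 0.0775). Single guides were compared in a second fit with 6 groups (0.057, with 6 residual degrees of freedom). Count ratios use exact conditional (Clopper-Pearson) intervals, scaled by effective library size. Intervals and floors cover counting error only, and 95% intervals of log2 changes are the estimate plus or minus the normal quantile times its standard error. Per group the chi-square per gene between libraries was 2.85 to 6.29 over genes with at least 20 counts, so none was a copy. The fits were tested on simulated counts. DESeq2 1.42.0, other scalings, no filter on low counts, single guides and leaving out each library were the alternatives. The members, gene lists and tests were chosen with earlier results of these data known. Text names the members in every library, for each list the 2 genes with the largest change in either direction at 1 CPM or more (or fewer), close paralogs, 3 neighbours on either side and the 3 genes most like each member. A few single genes among the neighbours and markers are not reported here.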

Additional observations from a re-analysis of the deposited data

Results flagged for a closer look

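The response to SGC0946 in sgUTX minus that in sgLuc was flagged for JPH2 (4.89 ± 0.61), EEF1A2 (3.93 ± 0.50) and SLC6A8 (0.81 ± 0.27) on the log2 scale. It was 2.25 ± 1.12 for PNCK and 0.47 ± 0.60 for GPNMB, which were not flagged. The DMSO libraries by which the genes were chosen enter this difference and favour a value above 0, so it is a description and carries no test. For JPH2 the sgUTX part of it rests on 37 reads with SGC0946 against 6 with DMSO.

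One PNCK value stood apart from its group. The second sgUTX_2 DMSO library had 6 reads, or 0.263 CPM, while the other 3 sgUTX DMSO libraries had none. The limit used, Dixon's 95% critical value, is passed by chance in about 1 in 20 groups of continuous values. That rate does not apply here, since with 3 of 4 libraries at 0 any read in the fourth passes it.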

How the results depend on the processing

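Of 453 values recomputed under 8 other settings, 428 kept their direction and side of the threshold or moved by less than 1 SD, as did 721 of 762 values with 1 library left out. For the members' responses to SGC0946 and their differences, which share the DMSO libraries of the choice, calls are named only to show how they depend on the setting. With library size only, 6557 genes were called higher with UTX guides in DMSO against 4325, which is 66.7% and 47.1% of those called, and SLC6A8 stood at 3.18% of sgLuc DMSO. In SGC0946 the share was 65% against 48.6%. With no filter on low counts, the SLC6A8 responses became called (0.46 in sgUTX, -0.29 in sgLuc), as did the PNCK difference (2.19), and 365 genes were lower in sgUTX_4 than sgUTX_2 in SGC0946 against 211. The replicate numbers did not pair the samples (correlations of deviations over 15 pairs of groups from -0.204 to 0.106, 1 of them over 0.1). With the replicate block the SLC6A8 responses became called in sgUTX (0.48) and sgLuc cells (-0.33). With 6 groups the DMSO changes were -11.00 for JPH2 and -8.04 for PNCK, and the SLC6A8 difference was 0.80, not called. With sgUTX_2 alone the DMSO changes were -8.77 for JPH2 and -6.38 for GPNMB, the PNCK response in sgLuc became called (-0.66) and the SLC6A8 difference was 0.87, not called. With sgUTX_4 alone they were -13.10 (JPH2), -10.14 (PNCK), -4.70 (GPNMB) and -4.23 (EEF1A2). In that setting 1 member was called higher with SGC0946 in sgUTX, against 2, GPNMB being at 1.28, the SLC6A8 difference was 0.75, not called, and the PNCK difference 6.05, called. Signs reversed there for EEF1A2 under SGC0946 (-0.06) and for the GPNMB difference (-0.20), neither called.

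Leaving out 1 library at a time, the DMSO change ranged from -10.57 to -9.25 for JPH2, -10.25 to -6.26 for PNCK and -5.95 to -4.96 for GPNMB. With SGC0946 in sgUTX it ranged from 0.80 to 5.20 for PNCK, 0.37 to 0.62 for SLC6A8 and -0.07 to 0.41 for EEF1A2. The SLC6A8 response in sgLuc ranged from -0.54 to -0.10, the difference of responses from 1.45 to 5.85 for PNCK and 0.58 to 1.02 for SLC6A8, and the SLC6A8 level from 2.27% to 3.09%. The SLC6A8 difference was not among the values kept in 8 of the 12 fits with 1 library left out. The difference for PNCK was called without the second sgUTX_2 DMSO library (5.85) or the second sgUTX_4 SGC0946 library (2.63). Between guides in DMSO, genes called higher ranged from 64 to 373 and lower from 25 to 321, PNCK from -5.35 to 0.00 and SLC6A8 from -0.33 to 0.34. In SGC0946 they ranged from 51 to 318 and 38 to 299, PNCK from -4.92 to 1.66, SLC6A8 from -0.37 to 0.00 and GPNMB from -0.40 to 0.48. The cause of these shifts was not tested. The 4 calls under SGC0946 between genotypes held in every setting. Depth limits PNCK, JPH2 and GPNMB in sgUTX cells, where a library held 0 to 18 reads of each, so fitted fold changes against groups with no read depend on the prior count.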

Other observations

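L1CAM, a cell adhesion gene of the same band of the X chromosome as SLC6A8 and PNCK, lay outside the rule for named genes and was chosen after its values were seen, so that it carries no test. It had 6 and 8 reads with sgUTX_4, 14 and 16 with sgUTX_2 and 193 and 234 with sgLuc in SGC0946, and 4 and 2 with sgUTX_4, 0 and 9 with sgUTX_2 and 88 and 67 with sgLuc in DMSO. As for GPNMB, the level was higher with SGC0946 in sgUTX cells (1.44 ± 0.48) and in sgLuc cells (1.22 ± 0.29, log2). Between genotypes L1CAM stood at -4.77 ± 0.39 in DMSO, below EEF1A2 at -3.74, and at -4.55 ± 0.29 under SGC0946 (log2). Its counts may include those of U52112.1, which shares 6.04% of its exonic bases.

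GDAP1L1, which starts 59.5 kb from JPH2, moved the other way in DMSO, by 3.39 ± 0.89 (log2, edgeR adjusted p = 0.00596).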
